A study of Homo sapiens with 12 samples.

Results

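The genes described here form the response to the transcription factor ATF4 apart from its amino acid transporters and aminoacyl-tRNA synthetases. They are 34 named genes of the 57500 in the count files, taken by symbol, and all 34 were found. By role they are 5 genes for kinases of the translation factor eIF2α or for subunits of its phosphatases, 8 transcription factors or cofactors, 8 intracellular effectors, 9 enzymes of amino acid and folate metabolism, and 4 secreted factors.

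Cells that lack an amino acid, accumulate unfolded protein or lose mitochondrial function activate kinases that phosphorylate eIF2α. Most translation then slows, while the mRNA of ATF4 is translated more, so that ATF4 protein can rise without a rise of its mRNA. ATF4 binds with partner proteins of the C/EBP family and raises genes for making and importing amino acids, genes that restore translation, and, when stress persists, genes linked to cell death.

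RNA was sequenced from HepG2, a human hepatocellular carcinoma line, in 3 groups of 4 libraries. WT was the unmodified line, and no vector or non-targeting shRNA control was analysed here. In shTST the gene TST, for the mitochondrial enzyme thiosulfate sulfurtransferase (rhodanese), which turns cyanide into thiocyanate, was silenced with an shRNA plasmid. In overTST a codon-optimised TST was expressed from a CMV promoter. The modified lines were made with lentivirus and blasticidin selection, and every group was kept for 24 h in the normal culture medium, which holds 400 µM glycine, so glycine was not varied. Transduction, selection and the change in TST thus go together in each modified line and cannot be told apart. The design text calls the 4 replicates of a group independent.

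Totals were 28866175 to 45120508 counts in WT, 27527854 to 33865386 in shTST and 22911380 to 27414142 in overTST. The share of counts on genes of the mitochondrial genome was 6.91% to 11.98% in WT, 6.84% to 8.66% in shTST and 10.8% to 11.73% in overTST, and its part in the results was not tested. The 8 hepatocyte markers summed to 19780 to 26129 CPM (read counts scaled to the effective size of each library) over the 12 libraries, with ALB at 5127 CPM or more. Of the markers of other cells, KDR had no count, and PTPRC and CD3E had at most 1 count and COL1A2 and COL3A1 at most 2 counts in a library. The 4 fibroblast markers, nearly all PDGFRB, summed to 21.6 to 25.2 CPM in WT, 17.0 to 19.4 CPM in shTST and 15.9 to 17.9 CPM in overTST. The 4 endothelial markers summed to 2.51 to 3.29, 1.81 to 2.16 and 3.40 to 3.91 CPM in the same order, and the 4 leukocyte markers to 2.39 to 3.11, 2.39 to 2.72 and 2.37 to 3.73 CPM. The part of these markers in the results was not tested.

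TST itself checked the labels. Its level was 47.2, 47.5, 52.8 and 48.5 CPM in WT replicates 1 to 4, 33.0, 33.6, 36.6 and 33.5 CPM in shTST, and 51.8, 56.0, 61.6 and 62.1 CPM in overTST. Every shTST library was below every WT library, and the lowest overTST library was below the highest WT library. TST was lower in shTST by a log2 fold change of −0.52 (SE 0.0549, adjusted p = 3.2e-06, edgeR's quasi-likelihood test with Benjamini-Hochberg adjustment over all genes tested, as for every adjusted p here). In overTST the log2 fold change was 0.24 (SE 0.062, adjusted p = 0.00384), and after correction for gene length it was 0.10 (adjusted p = 0.201). Transcripts of a codon-optimised construct need not align to the native gene, whose counts are given here. Since the libraries come from whole cultures, fewer cells with a transcript and less of it per cell cannot be told apart.

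In shTST most of the genes that changed were lower, and 6 of the 9 enzymes were among them. Of the 34 genes, 32 passed the filter on low counts, 2 were higher than WT and 12 were lower. That is 43.8% of those tested (6.25% higher, 37.5% lower), against 16.1% of all 14584 genes (6.69% higher, 9.4% lower). The share that was higher is near that of all genes. The median log2 fold change of the 32 genes was −0.09, and that of all genes tested was 0.0. ASNS, ADM2 and VLDLR fell furthest, and the 2 that rose were NUPR1 and EIF2AK1.

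In overTST 9 of the 32 genes were higher than WT and 6 were lower. The higher ones were 1 phosphatase subunit, 3 of 8 transcription factors, 3 of 7 tested effectors and 2 of 3 tested secreted factors, and the lower ones were 4 of 9 enzymes and 2 effectors. Together these are 46.9% of those tested (28.1% higher, 18.8% lower), against 33.9% of all 14421 genes (15.7% higher, 18.2% lower). The share that was lower is near that of all genes. The median log2 fold change was 0.07, and that of all genes tested was 0.0. DDIT3, NUPR1 and GDF15 rose furthest and VLDLR and ALDH1L2 fell furthest.

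Both comparisons use the same 4 WT libraries, so their values stand side by side only, and the difference between the modified lines was tested directly. There, 17 of the 32 genes were lower in shTST than in overTST and 3 were higher. That is 62.5% of those tested (9.38% higher, 53.1% lower), against 33.0% of all 14883 genes (16.9% higher, 16.1% lower). The median log2 fold change was −0.20, against 0.0 for all genes tested. All 3 secreted factors that were tested and 6 of the 8 transcription factors were among the 17.

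**Figure D1:**
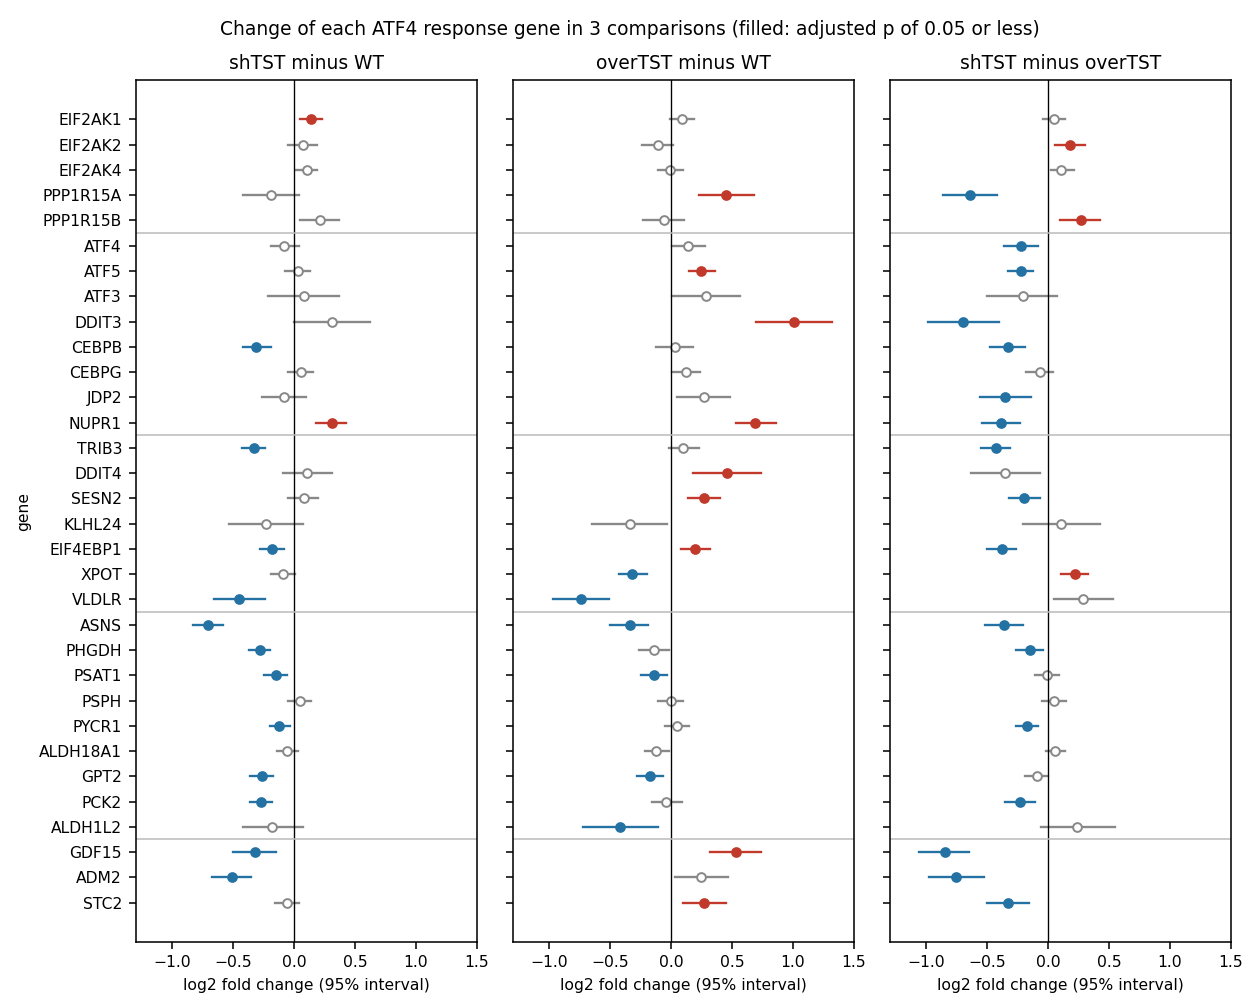
Log2 fold changes (horizontal axis, with 95% intervals) of the 32 tested genes in shTST against WT, overTST against WT and shTST against overTST, each from 4 libraries a group, ordered by role, with filled points for an adjusted p of 0.05 or less. In the left panel 12 filled points lie below 0 and 2 above, in the middle panel 6 and 9, and in the right panel 17 and 3.

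CHAC1, a glutathione-degrading enzyme, and FGF21, a hormone of the liver, were below the filter in every comparison. CHAC1 had 0 to 4 counts per library in WT, 1 to 5 in shTST and 1 to 5 in overTST. FGF21 had 0 to 1 count in WT, 0 to 1 in shTST and 0 to 5 in overTST, and 5 of its 6 counts in overTST came from replicate 1. At this depth a difference in either gene was not detectable. Both are known targets of ATF4.

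Levels between genes can be compared only per length. In WT the mean level per kilobase of exon was highest for PSAT1 (191.9 CPM per kb), ATF4 (135.5), EIF4EBP1 (124.0) and PYCR1 (121.8). The lowest of the tested genes were KLHL24 (0.379 CPM per kb), ALDH1L2 (0.551), VLDLR (0.884) and ATF3 (0.952). The enzymes spanned nearly the whole range of the response.

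Of the 3 eIF2α kinases among the 34 genes, EIF2AK1 alone passed against WT, in shTST. The remaining eIF2α kinase, EIF2AK3 (PERK, which senses unfolded protein in the endoplasmic reticulum), is not among the 34 genes and is named after its values were seen. It was at 9.94 to 14.2 CPM in WT, 9.82 to 11.9 CPM in shTST and 7.05 to 8.99 CPM in overTST, below all other libraries. Its log2 fold change was −0.49 in overTST (SE 0.113, adjusted p = 0.00159), −0.03 in shTST (95% interval −0.24 to 0.19) and 0.47 between the lines (SE 0.112, adjusted p = 0.00217), and no alternative changed these calls. EIF2AK1 encodes HRI, the kinase that senses lack of haem and, through DELE1, mitochondrial stress. Its level was 230.7, 211.1, 226.9 and 228.3 CPM in WT, 243.9, 259.3, 238.2 and 248 CPM in shTST, and 245.7, 232.1, 235.4 and 241.2 CPM in overTST. The shTST libraries all lay above WT, with a log2 fold change of 0.14 (SE 0.0435, adjusted p = 0.0276), and in overTST it was 0.09 (95% interval −0.01 to 0.19, adjusted p = 0.152). The call in shTST was lost with no filter (adjusted p = 0.0623) and without WT replicate 2 (0.0826), shTST replicate 2 (0.0837) or shTST replicate 4 (0.0656), at log2 fold changes of 0.13, 0.11, 0.12 and 0.14. Over all 18 alternatives the overTST value ran from 0.06 to 0.14 (adjusted p = 0.0107 to 0.485), and it passed after correction for gene length. EIF2AK1 shares 9.6% of its exonic bases with AIMP2 on the other strand.

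EIF2AK2 encodes PKR, the kinase that binds double-stranded RNA. It stood at 49.8, 45.5, 41.5 and 41.9 CPM in WT, 48.0, 44.7, 46.9 and 47.6 CPM in shTST, and 42.8, 40.8, 40.6 and 41.3 CPM in overTST. Neither line separated from WT, with log2 fold changes of 0.07 in shTST (95% interval −0.05 to 0.19) and −0.11 in overTST (−0.24 to 0.02). Between the lines it was higher in shTST by 0.18 (SE 0.0578, adjusted p = 0.0201). That difference was 0.04 after correction for gene length (adjusted p = 0.625), and the call was also lost without shTST replicate 1 (0.0589), shTST replicate 4 (0.0531) or overTST replicate 3 (0.0559).

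EIF2AK4 encodes GCN2, the kinase that senses uncharged tRNA and so the lack of an amino acid. Its level was 93.5, 91.7, 89.6 and 93.9 CPM in WT, 101.5, 101.8, 97.3 and 96.3 CPM in shTST, and 95.4, 88.5, 95.6 and 87.3 CPM in overTST. The shTST libraries all lay above WT, yet the log2 fold change of 0.11 (95% interval 0.02 to 0.19) missed the threshold (adjusted p = 0.0917, and 0.0195 to 0.326 over the alternatives). In overTST it was −0.01 (−0.11 to 0.10, adjusted p = 0.939). At 11957 exonic bases this is the longest gene of the response, and after correction for gene length the value in overTST was 0.17 (adjusted p = 0.00958), which turned the direction.

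The phosphatase subunits are PPP1R15A (GADD34, induced in the response to restore translation) and PPP1R15B (the constitutive subunit). PPP1R15A ranged from 19.5 to 32.6 CPM in WT, 19.6 to 22.3 CPM in shTST and 29.9 to 35.3 CPM in overTST, where its log2 fold change was 0.45 (SE 0.109, adjusted p = 0.00227). WT replicate 2, at 32.6 CPM, lay within the overTST range, and the other WT libraries were at most 22.2 CPM. In shTST the log2 fold change was −0.19 (95% interval −0.42 to 0.04, adjusted p = 0.258), and between the lines it was −0.64 (SE 0.108, adjusted p = 7.2e-05). Over the alternatives the shTST value ran from −0.28 to 0.01 (adjusted p = 0.0467 to 0.943) and passed only with no filter. PPP1R15B was higher in shTST than in overTST by 0.27 (SE 0.0813, adjusted p = 0.0129), or 0.22 without shTST replicate 1 (adjusted p = 0.0615), and against WT its values were 0.21 (adjusted p = 0.0728) and −0.06 (0.622). Over the alternatives the shTST value ran from 0.14 to 0.26 (adjusted p = 0.0199 to 0.242) and passed in 5 of 18.

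ATF4 mRNA did not pass the test in either line. Its level was 337, 320.2, 358 and 347.1 CPM in WT, 329, 296.9, 363.3 and 302.5 CPM in shTST, and 323.4, 349.9, 403.6 and 428.2 CPM in overTST. The shTST libraries spread over and below the WT range, and overTST replicates 3 and 4 lay above every WT library while replicate 1 did not. The log2 fold change was −0.08 in shTST (95% interval −0.19 to 0.04, adjusted p = 0.381) and 0.14 in overTST (0.01 to 0.28, adjusted p = 0.0961). Over the 18 alternatives the overTST value ran from 0.03 to 0.21, with adjusted p of 0.00639 to 0.655, and 3 of them passed. It was highest without overTST replicate 1 and lowest after correction for gene length. Between the lines it was lower in shTST by a log2 fold change of −0.22 (SE 0.0691, adjusted p = 0.0158), a call lost after correction for gene length (−0.13, adjusted p = 0.128) and without shTST replicate 2 (−0.18, 0.0665), shTST replicate 4 (−0.19, 0.0644), overTST replicate 3 (−0.18, 0.0703) or overTST replicate 4 (−0.15, 0.0988). ATF4 has processed pseudogenes, and how reads shared with them were counted is not given in the sources used here.

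DDIT3 encodes CHOP, a factor linked to cell death under lasting stress. It had 3.29, 2.5, 4.18 and 4.2 CPM in WT, 4.83, 3.75, 4.32 and 4.45 CPM in shTST, and 6.87, 5.59, 7.78 and 7.86 CPM in overTST. The overTST libraries all lay above every other library, at a log2 fold change of 1.01 against WT (SE 0.15, adjusted p = 1.7e-05). In shTST it was 0.31 (95% interval 0.0 to 0.62, adjusted p = 0.163), and shTST was below overTST by −0.70 (SE 0.143, adjusted p = 5.5e-04). DDIT3 shares 28.0% of its exonic bases with MARS1 on the other strand, which had 35.3 times its counts. The use of strand in counting is not given in the sources used here, so the 2 genes may not be fully told apart. MARS1 fell in both lines (−0.44 and −0.39), and its part in the counts of DDIT3 was not tested.

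NUPR1, a small stress-induced chromatin protein that acts with these factors, rose in both lines. It was at 22.9, 22.8, 22.2 and 20.1 CPM in WT, 28.0, 26.9, 27.6 and 26.2 CPM in shTST, and 29.3, 34.8, 40.9 and 37.5 CPM in overTST. The groups did not overlap. The log2 fold change was 0.31 in shTST (SE 0.0607, adjusted p = 0.00169) and 0.69 in overTST (SE 0.0812, adjusted p = 9.8e-07), and shTST was below overTST by −0.39 (SE 0.0755, adjusted p = 3.3e-04).

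CEBPB, a partner of ATF4 on DNA, fell in shTST. Its level was 80.6, 85.2, 96.9 and 85.4 CPM in WT, 68.5, 68.2, 76.4 and 68.0 CPM in shTST, and 71.6, 90.3, 95.7 and 97.2 CPM in overTST. Each shTST library was below each WT library, at a log2 fold change of −0.31 (SE 0.0555, adjusted p = 7.2e-04). In overTST it was 0.03 (95% interval −0.12 to 0.18), with replicate 1 below the WT range and replicate 4 above it. CEBPG, the other partner of this family, had 0.06 in shTST (adjusted p = 0.498) and 0.12 in overTST (0.091). The latter ran from 0.10 to 0.15 over the alternatives (adjusted p = 0.0386 to 0.33) and passed in 3 of 18.

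ATF5, a factor with its own mitochondrial stress programme, stood at 78.1, 82.6, 75.6 and 75.0 CPM in WT, 74.6, 84.6, 79.6 and 79.2 CPM in shTST, and 88.2, 98.5, 95.6 and 89.5 CPM in overTST. It was higher in overTST than in every WT and shTST library. The log2 fold change was 0.25 in overTST (SE 0.0528, adjusted p = 6.1e-04) and 0.03 in shTST (95% interval −0.07 to 0.13). ATF5 shares 21.2% of its exonic bases with NUP62 on the other strand, which was itself higher in overTST by 0.12 (adjusted p = 0.0448). ATF3, an early stress factor, and JDP2, a repressor of the AP-1 family, had log2 fold changes in overTST of 0.29 (adjusted p = 0.0972) and 0.27 (0.0511). Over the 18 alternatives ATF3 ran from 0.22 to 0.43 (adjusted p = 0.0202 to 0.248) and passed once, without WT replicate 2. JDP2 ran from 0.18 to 0.35 (adjusted p = 0.00778 to 0.213) and passed in 11.

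**Figure D2:**
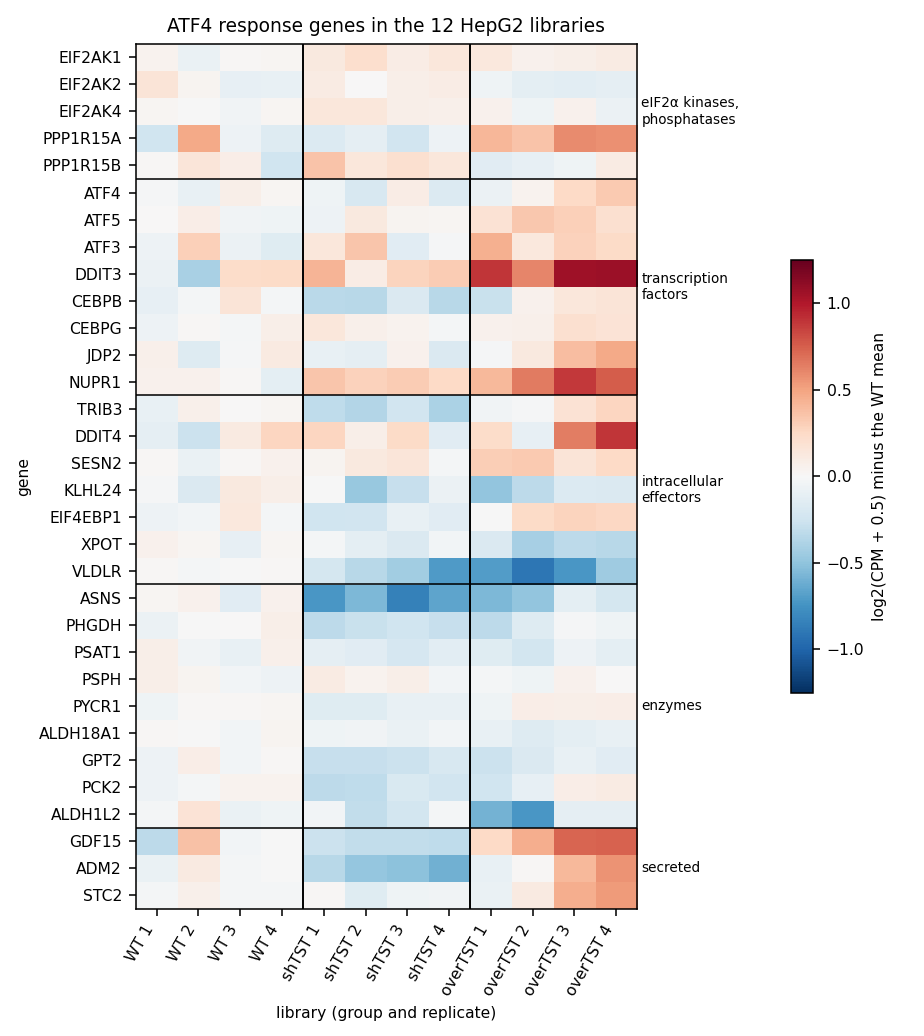
Log2(CPM + 0.5) of the 32 tested genes (rows, grouped by role) in the 12 libraries (columns) minus the WT mean of the gene, from blue (lower) to red (higher). The enzyme rows are blue in most shTST libraries, and overTST replicates 3 and 4 are redder than replicates 1 and 2 of the same group.

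The overTST libraries were not alike. Averaged over the 32 genes, the deviation from the WT mean on the log2(CPM + 0.5) scale was −0.04 and −0.02 in overTST replicates 1 and 2 and 0.17 and 0.19 in replicates 3 and 4. For the secreted factors it was 0.02, 0.19, 0.53 and 0.61 in the same order, and for the enzymes −0.26, −0.23, −0.04 and −0.06. Averaged over the 32 genes, it ran from −0.12 to −0.06 across the shTST libraries and from −0.03 to 0.02 across WT. For the secreted factors it was −0.14, 0.18, −0.03 and −0.01 in WT replicates 1 to 4, and −0.20, −0.32, −0.29 and −0.32 in those of shTST. No label given here sets overTST replicates 1 and 2 apart from 3 and 4. Of the 32 genes, 9 were higher than WT with all 4 overTST libraries, 14 without replicate 1, 6 without replicate 3 and 7 without replicate 4.

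TRIB3, a pseudokinase that dampens ATF4 and CHOP activity, fell in shTST. It had 183.7, 204, 195.8 and 198.7 CPM in WT, 156.3, 151.3, 165.3 and 148.8 CPM in shTST, and 189.5, 192.9, 221.7 and 235.8 CPM in overTST. The shTST libraries lay below all others, at −0.33 against WT (SE 0.0456, adjusted p = 6.2e-05) and −0.43 against overTST (SE 0.0581, adjusted p = 6.2e-06). In overTST it was 0.10 (95% interval −0.02 to 0.23, adjusted p = 0.202). Over the alternatives it ran from 0.04 to 0.15 (adjusted p = 0.0486 to 0.64) and passed once, without overTST replicate 1.

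EIF4EBP1, which holds the cap-binding protein eIF4E and so limits translation, passed in opposite directions. Its level was 127, 129.4, 145.2 and 130.5 CPM in WT, 111.6, 112.3, 124.5 and 120.3 CPM in shTST, and 132.8, 156.7, 161.6 and 158.5 CPM in overTST. All shTST libraries were below WT, and overTST replicate 1 lay within the WT range. The log2 fold change was −0.18 in shTST (SE 0.0498, adjusted p = 0.0154), 0.20 in overTST (SE 0.0589, adjusted p = 0.0116) and −0.38 between the lines (SE 0.0577, adjusted p = 2.7e-05). EIF4EBP1 is the shortest gene of the response, at 1073 exonic bases, and in overTST the value was 0.02 after correction for gene length (adjusted p = 0.813). The call in shTST was lost without WT replicate 3 (−0.14, adjusted p = 0.0573), shTST replicate 1 (−0.15, 0.076) or shTST replicate 2 (−0.16, 0.0555), and that in overTST without overTST replicate 3 (0.17, 0.0607).

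The mTORC1 inhibitors SESN2 and DDIT4 rose in overTST. SESN2 was at 26.3, 24.5, 26.2 and 27.0 CPM in WT, 26.6, 28.4, 28.9 and 25.6 CPM in shTST, and 32.2, 32.8, 29.2 and 31.0 CPM in overTST. All overTST libraries exceeded the others, at 0.27 against WT (SE 0.0644, adjusted p = 0.00211). DDIT4 spread widely, from 28.5 to 41.6 CPM in WT and from 32.0 to 64.2 CPM in overTST, at a log2 fold change of 0.46 (SE 0.136, adjusted p = 0.0111). It was 0.39 without overTST replicate 3 (adjusted p = 0.0556) and 0.28 without replicate 4 (0.0822), 0.32 after correction for gene length (0.0661), and DESeq2 gave an adjusted p of 0.14.

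XPOT, the exporter of tRNA from the nucleus, and VLDLR, a lipoprotein receptor, were the 2 effectors that fell in overTST. XPOT had 111.9, 109, 100.2 and 109.5 CPM in WT, 105.8, 98.6, 94.8 and 104.7 CPM in shTST, and 94.6, 80.6, 85.8 and 84.6 CPM in overTST. Its overTST libraries were below all others, at −0.32 against WT (SE 0.0556, adjusted p = 1.1e-04), and the shTST value was −0.09 (95% interval −0.19 to 0.01). VLDLR had 8.33, 8.13, 8.22 and 8.34 CPM in WT, 7.01, 6.36, 5.97 and 4.85 CPM in shTST, and 4.89, 4.19, 4.78 and 5.96 CPM in overTST. Both lines lay wholly below WT, at −0.45 in shTST (SE 0.102, adjusted p = 0.00445) and −0.74 in overTST (SE 0.11, adjusted p = 1.7e-05), and overlapped each other. KLHL24, an adaptor of a ubiquitin ligase, had −0.23 in shTST (adjusted p = 0.308) and −0.34 in overTST (0.085). The latter ran from −0.41 to −0.22 over the alternatives (adjusted p = 0.0486 to 0.318) and passed once, without WT replicate 2.

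Of the 9 enzymes, 6 fell in shTST and none rose, while 4 fell in overTST and none rose. Their median log2 fold changes were −0.18 and −0.14. Of all genes tested, 9.4% were lower in shTST and 18.2% in overTST. ASNS, which makes asparagine, fell furthest in shTST of all 32 genes. Its level was 85.1, 87.0, 75.8 and 87.1 CPM in WT, 50.2, 56.4, 46.2 and 52.6 CPM in shTST, and 56.6, 59.4, 76.6 and 71.9 CPM in overTST. The shTST libraries lay below all others, and overTST replicate 3 just exceeded the lowest WT library. The log2 fold change was −0.71 in shTST (SE 0.0586, adjusted p = 2.6e-07), −0.34 in overTST (SE 0.0745, adjusted p = 9.4e-04) and −0.36 between the lines (SE 0.0767, adjusted p = 6.8e-04). All 3 calls held in all 18 alternatives to the analysis.

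ATF4 and C/EBP proteins bind a composite element whose core reads TGATGNAA. The 250 bases before the RefSeq start were searched for it on both strands (TTNCATCA on the other). Of the 14 genes that passed in shTST, 9 had such a window, and ASNS alone of these held the motif. A window was at hand for 27 of the 34 genes, and 7 of the 27 (25.9%) held the motif, against 3.14% of all 35116 windows and 3.89% of 27305 named genes. The windows follow from RefSeq, assembly GRCh38.p14, 5′ to 3′ on the strand of the gene, with the motif in capitals. ASNS is shown because it fell furthest in shTST, and the other 6 were added after their values were known, because they hold the same pattern beside genes that did not pass against WT. A match is a description of the letters, not evidence of binding.
ASNS, chr7:97872458-97872487, minus strand: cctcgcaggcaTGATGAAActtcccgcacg
CEBPG, chr19:33374060-33374089, plus strand: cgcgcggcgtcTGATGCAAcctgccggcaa
JDP2, chr14:75427995-75428021, plus strand: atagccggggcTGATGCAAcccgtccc
ATF3, chr1:212565205-212565234, plus strand: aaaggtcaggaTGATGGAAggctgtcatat
PPP1R15B, chr1:204412026-204412055, minus strand: cccgccccggcTGATGCAAcctcacgctgc
CHAC1, chr15:40953251-40953280, plus strand: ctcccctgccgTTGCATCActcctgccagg
FGF21, chr19:48755459-48755488, plus strand: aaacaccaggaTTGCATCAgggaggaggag

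The motif began 68 bases before the RefSeq start in ASNS, 42 in CEBPG, 16 in JDP2 and 54 in FGF21, and 191, 227 and 209 bases before it in ATF3, PPP1R15B and CHAC1. In CHAC1 and FGF21 it lay on the strand opposite to the gene. The windows of ASNS, CEBPG, JDP2 and CHAC1 lie inside the gene span given by the deposited exon coordinates, which begins further upstream. The 7 genes share the pattern only, and the letter at its N is not the same in all of them. Of the tested ones, CEBPG, JDP2, ATF3 and PPP1R15B had log2 fold changes in shTST of 0.06, −0.08, 0.08 and 0.21, and ASNS of −0.71.

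PHGDH, PSAT1 and PSPH make serine in this order. PHGDH had 288.6, 301.7, 303.8 and 320.0 CPM in WT, 242.1, 250.2, 255.2 and 249.1 CPM in shTST, and 240.9, 270.3, 299.4 and 293.1 CPM in overTST. The shTST libraries were all below WT, at −0.28 (SE 0.0424, adjusted p = 1.3e-04), and in overTST the value was −0.14 (95% interval −0.26 to −0.02, adjusted p = 0.0701). Over the 18 alternatives the overTST value ran from −0.18 to −0.08, with adjusted p of 0.015 to 0.329, and 5 passed. PSAT1, the next enzyme, ranged from 393.4 to 440.4 CPM in WT, 362.1 to 387.0 CPM in shTST and 357.8 to 402.3 CPM in overTST. Its log2 fold changes were −0.15 (SE 0.0456, adjusted p = 0.0263) and −0.14 (SE 0.0521, adjusted p = 0.0393). PSPH, the last enzyme, showed no change that passed, at 0.05 in shTST (95% interval −0.05 to 0.14) and −0.00 in overTST (−0.11 to 0.10). PSPH has a transcribed pseudogene, PSPHP1, that may share its reads.

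Both PSAT1 calls were close to the threshold. In shTST the call was lost without WT replicate 1 (adjusted p = 0.0829), WT replicate 4 (0.113), or shTST replicate 1 (0.0561), 2 (0.0568), 3 (0.0897) or 4 (0.0699), at log2 fold changes of −0.13 to −0.16, and with upper-quartile normalization (0.0632). In overTST it was lost without WT replicate 1 (0.136), WT replicate 4 (0.142), overTST replicate 2 (0.142) or overTST replicate 4 (0.0601), at −0.11 to −0.15, and with upper-quartile normalization (0.103). After correction for gene length the overTST value was −0.27 (adjusted p = 4.7e-04).

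GPT2 and PCK2, mitochondrial enzymes that link pyruvate to alanine and oxaloacetate to phosphoenolpyruvate, fell in shTST. GPT2 had 407.1, 451.4, 415.4 and 430.1 CPM in WT, 348.7, 347.8, 352.6 and 369.9 CPM in shTST, and 352.2, 374.7, 399.1 and 386.7 CPM in overTST. Both lines lay below WT, at −0.26 (SE 0.0441, adjusted p = 3.7e-04) and −0.17 (SE 0.0507, adjusted p = 0.0106), and the overTST value was −0.10 after correction for gene length (adjusted p = 0.156). PCK2 had 336.1, 347.0, 362.3 and 363.7 CPM in WT, 280.2, 283.1, 307.5 and 298.2 CPM in shTST, and 296.1, 327.4, 372.5 and 377.7 CPM in overTST. All shTST libraries were below WT, at −0.27 (SE 0.0444, adjusted p = 3.3e-04), whereas overTST ran from below to above the WT range, at −0.04 (95% interval −0.16 to 0.09).

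The proline enzymes were among the most abundant. PYCR1, the last step of proline synthesis, ranged from 338.4 to 357.3 CPM in WT, 316.2 to 330.4 CPM in shTST and 337.5 to 372.5 CPM in overTST, and was −0.12 in shTST (SE 0.0409, adjusted p = 0.0495). That call was lost in 12 of 18 alternatives, among them those without WT replicate 2 (adjusted p = 0.0785), 3 (0.0857) or 4 (0.154), or shTST replicate 1 (0.153), 2 (0.14), 3 (0.0636) or 4 (0.0908). ALDH18A1, the first step, had −0.06 in shTST (adjusted p = 0.377) and −0.12 in overTST (0.0509), and the latter ran from −0.14 to −0.09 over the 18 alternatives (adjusted p = 0.0132 to 0.157) and passed in 9. ALDH1L2, a mitochondrial folate enzyme, was lower in overTST by −0.42 (SE 0.149, adjusted p = 0.0323), from 4.38 to 5.31 CPM in WT and 2.63 to 4.30 CPM in overTST. This call was lost after correction for gene length (−0.30, adjusted p = 0.143) and without WT replicate 1 (−0.43, 0.0515), WT replicate 2 (−0.35, 0.106), overTST replicate 1 (−0.34, 0.0958) or overTST replicate 2 (−0.30, 0.143).

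**Figure D3:**
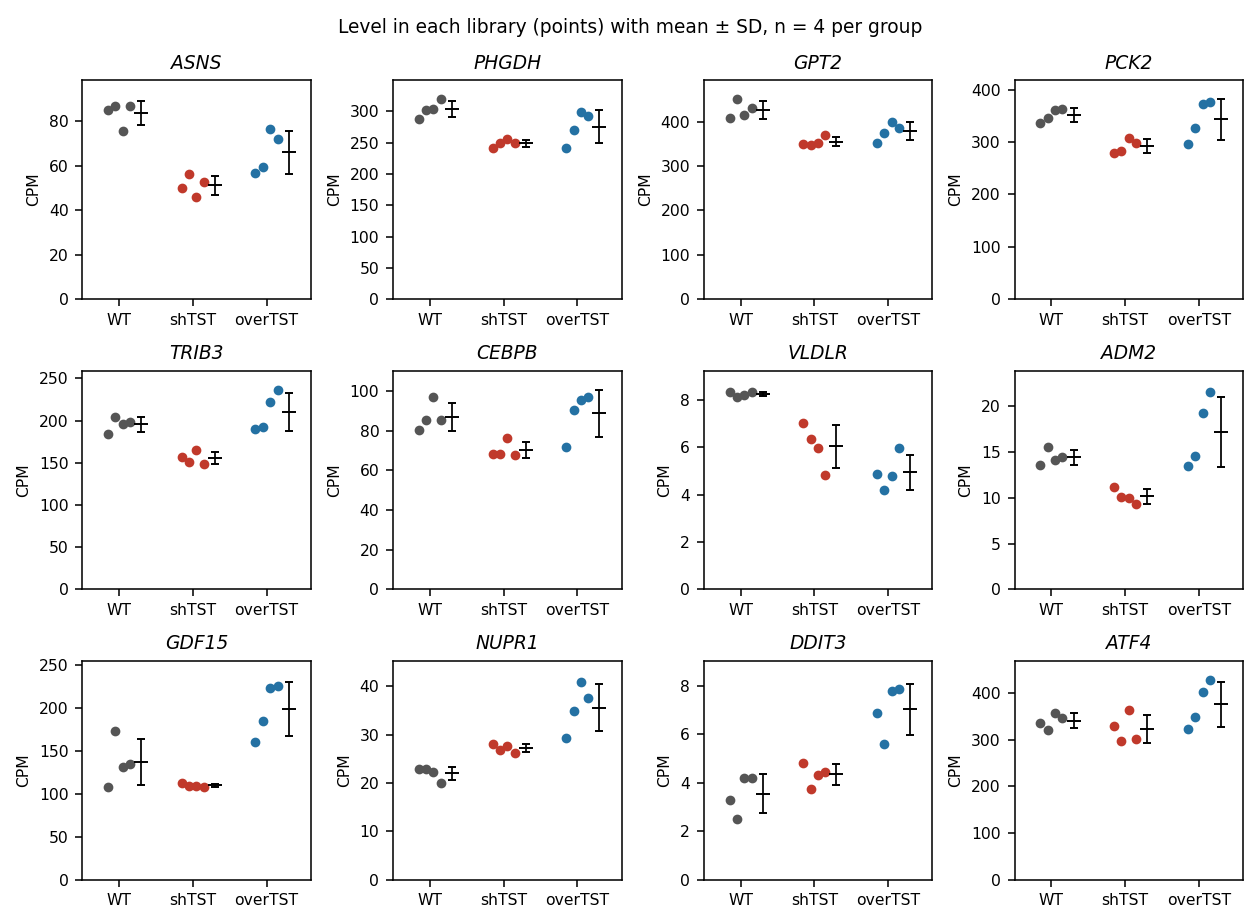
Level in CPM (vertical axis from 0) of 12 of the genes in each library (points), with the mean ± SD of each group of 4 as a line with bars. ASNS is at 75.8 to 87.1 CPM in WT and 46.2 to 56.4 CPM in shTST, and DDIT3 is at 2.5 to 4.2 CPM in WT and 5.59 to 7.86 CPM in overTST.

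Of all roles, the 3 tested secreted factors had the largest median difference between the lines (−0.76), with STC2 differing less than GDF15 and ADM2. GDF15, a circulating stress hormone that lowers appetite, had 107.8, 173.7, 131.8 and 134.9 CPM in WT, 112.4, 108.9, 109.2 and 108.5 CPM in shTST, and 160.2, 185.3, 223.6 and 225.2 CPM in overTST. The shTST libraries fell in the lower end of the WT range, which WT replicate 2 stretched upward into the range of overTST. It was lower in shTST by −0.32 (SE 0.0848, adjusted p = 0.0118) and higher in overTST by 0.53 (SE 0.101, adjusted p = 2.6e-04). Without WT replicate 2 the shTST value was −0.19 (adjusted p = 0.0279), and DESeq2 gave an adjusted p of 0.0972. Between the lines it was −0.85 (SE 0.0981, adjusted p = 9.2e-07), the largest difference of the 32 genes.

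ADM2, a vasodilator peptide related to adrenomedullin, had 13.6, 15.5, 14.1 and 14.4 CPM in WT, 11.2, 10.1, 9.94 and 9.29 CPM in shTST, and 13.5, 14.5, 19.2 and 21.5 CPM in overTST. The shTST libraries were below all others, at −0.51 against WT (SE 0.0785, adjusted p = 1.7e-04) and −0.76 against overTST (SE 0.109, adjusted p = 1.5e-05). In overTST, where replicates 1 and 2 lay within or near WT and replicates 3 and 4 above it, the value was 0.25 (95% interval 0.03 to 0.47, adjusted p = 0.0781). Over the 18 alternatives it ran from 0.13 (without overTST replicate 4, adjusted p = 0.386) to 0.35 (without overTST replicate 1, 0.00717), and 4 passed. STC2, a secreted glycoprotein, was likewise highest in overTST replicates 3 and 4, at 72.3, 83.0, 104.9 and 111.0 CPM in replicates 1 to 4 against 75.4 to 80.2 CPM in WT, with a log2 fold change of 0.27 (SE 0.086, adjusted p = 0.0158). It was 0.21 without overTST replicate 3 (adjusted p = 0.0955), 0.18 without replicate 4 (0.103), and DESeq2 gave 0.118. In shTST it was −0.06 (95% interval −0.16 to 0.04).

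The other differences between the lines were of moderate size. Besides those given above, shTST was lower than overTST in JDP2 (−0.35, adjusted p = 0.01), STC2 (−0.33, 0.00308), CEBPB (−0.33, 8.7e-04), PCK2 (−0.23, 0.00342), ATF5 (−0.22, 0.00138), SESN2 (−0.20, 0.016), PYCR1 (−0.17, 0.00457) and PHGDH (−0.15, 0.0373), and higher in XPOT (0.22, 0.00207). After correction for gene length the values of CEBPB (−0.20, adjusted p = 0.0144), EIF4EBP1 (−0.23, 6.2e-04) and XPOT (0.14, 0.0269) were smaller and still passed, and that of PYCR1 did not (−0.10, 0.0719). PHGDH lost its call in 7 of 18 alternatives, with −0.10 to −0.16 and adjusted p of 0.0514 to 0.177, among them each of shTST replicates 1, 2 and 4 and overTST replicates 2, 3 and 4 left out. SESN2 lost it without shTST replicate 4 (−0.16, 0.0696) or overTST replicate 2 (−0.17, 0.0559). It also lost it with no filter (−0.18, 0.0734) and with the length correction and replicate block together (−0.16, 0.0506). JDP2 lost its call without overTST replicate 4 (−0.27, 0.0595). DDIT4, at −0.35 (adjusted p = 0.0525), ran from −0.50 without overTST replicate 2 to −0.18 without overTST replicate 4, with adjusted p of 5.5e-06 to 0.331 over the alternatives, and passed in 9 of 18. VLDLR, at 0.29 (0.0621), ran from 0.17 to 0.38 (adjusted p = 0.0172 to 0.298) and passed in 2. EIF2AK4, at 0.11 (0.0609), ran from −0.04 after correction for gene length, which turned the direction, to 0.13 (adjusted p = 0.0322 to 0.562) and passed in 3. GPT2, at −0.09 (0.136), ran from −0.16 after correction for gene length to −0.06 (adjusted p = 0.0048 to 0.416) and passed in 3. In PSAT1, PSPH, ALDH18A1, KLHL24, ALDH1L2, ATF3, CEBPG and EIF2AK1 the differences ran from −0.21 to 0.24 and did not pass. Of these, PSPH alone passed in an alternative, with the length correction and replicate block together (0.12, adjusted p = 0.0349).

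Fold changes followed gene length in overTST. Across all genes tested, Spearman's rho of the log2 fold change with exonic length was −0.404 in overTST against WT, −0.09 in shTST against WT and 0.357 between the lines, a description over genes of the same libraries. The 32 genes had a median exonic length of 4232 bases, against 4479 for all genes tested in overTST. After correction for this trend 10 were higher and 5 lower in overTST, but they were not the same genes. EIF2AK1, EIF2AK4 and JDP2 joined the higher ones and ALDH18A1 the lower ones, while DDIT4, EIF4EBP1, GPT2 and ALDH1L2 no longer passed. In shTST 4 were higher and 12 lower, and EIF2AK4 (0.13, adjusted p = 0.0291) and PPP1R15B (0.22, 0.0497) joined the higher ones. The part of this trend in the results was otherwise not tested.

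The other genes of the pathway are given by the same counts. These are read against the shares of all genes tested that passed, 16.1% in shTST, 33.9% in overTST and 33.0% between the lines. Of 15 genes of the stress response machinery (the kinase EIF2AK3 and the subunits and regulators of eIF2 and eIF2B), none rose and 2 fell in shTST, 1 rose and 4 fell in overTST, which is near those shares. GCN1, the activator of GCN2, fell in both (−0.34, adjusted p = 7.4e-05, and −0.64, adjusted p = 7.9e-08), as did EIF2B4 in shTST (−0.14) and DNAJC3 and EIF2AK3 in overTST (−0.32 and −0.49). Between the lines 5 were higher and 3 lower in shTST, with EIF2S2 (−0.31) and DNAJC3 (0.31) having the smallest p.

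Of the 10 amino acid transporters of the ATF4 response, 9 were tested. In shTST 7 fell and in overTST 6 fell, with none higher, at medians of −0.21 and −0.26. SLC7A11, the cystine importer, had −0.81 (SE 0.0783) in shTST and −0.65 (SE 0.0973) in overTST, followed by SLC1A5 (−0.38) in shTST and SLC7A1 (−0.34) in overTST. Between the lines 2 were lower in shTST, SLC1A5 (−0.23) and SLC43A1 (−0.12).

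Of the 12 aminoacyl-tRNA synthetases that respond to ATF4, 10 fell in shTST and 9 in overTST, with none higher, at medians of −0.22 and −0.18. MARS1 (−0.44) and GARS1 (−0.29) had the smallest p in shTST, and IARS1 (−0.47) and MARS1 (−0.39) in overTST. Between the lines 2 were higher in shTST, IARS1 (0.29) and LARS1 (0.17), and 2 were lower. Of the 8 other cytosolic synthetases, 2 fell in shTST, VARS1 (−0.34) and FARSA (−0.21), while in overTST HARS1 rose (0.24) and VARS1 fell (−0.17). Between the lines 4 of these were lower in shTST, HARS1 (−0.25) and FARSA (−0.16) among them.

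Of the 4 genes of mitochondrial folate metabolism, which include the folate carrier SLC25A32, 3 fell in shTST and 3 in overTST, at medians of −0.24 and −0.20. They were led by MTHFD2 (−0.33) and SHMT2 (−0.29) in shTST and by MTHFD2 (−0.38) and MTHFD1L (−0.19) in overTST. Between the lines SHMT2 alone passed (−0.17), and SLC25A32 had 0.17 (adjusted p = 0.0803).

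Of the 15 chaperones and related genes of the endoplasmic reticulum, targets of ATF6 and XBP1, the medians were 0.08 in shTST and 0.05 in overTST, and 10 and 7 did not pass. In all, 5 rose and none fell in shTST, with PDIA4 (0.41) and HSP90B1 (0.34) first. In overTST 6 rose and 2 fell, with SEL1L (−0.55) and SDF2L1 (0.35) first. Of all genes tested, 6.69% were higher in shTST and 15.7% in overTST, and 9.4% and 18.2% were lower. Between the lines 4 of the 15 were higher and 2 lower in shTST, SEL1L (0.48) and SDF2L1 (−0.32) first. Of 10 mitochondrial chaperones and proteases, HSPE1 rose (0.22) and LONP1 fell (−0.17) in shTST, and 2 rose, HSPE1 (0.45) and CLPP (0.25), and 1 fell in overTST. The counts of these 10 mitochondrial genes in shTST and overTST are near the shares of all genes. Between the lines 1 was higher and 3 lower in shTST, CLPP (−0.34) and HSPE1 (−0.23) first.

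Some calls of single genes in these lists were not stable. After correction for gene length VARS1 (−0.10, adjusted p = 0.138) and CLPP (0.13, 0.0561) no longer passed in overTST, nor did LARS1 (0.08, 0.225), HSPE1 (−0.10, 0.0667) and SLC43A1 (−0.09, 0.123) between the lines, and SDF2L1 was 0.17 in overTST and −0.17 between the lines. EIF2B4 lost its call in shTST without WT replicate 4 (adjusted p = 0.0847), shTST replicate 2 (0.108) or shTST replicate 4 (0.0846), and with upper-quartile normalization (0.0593). SHMT2 lost its call between the lines without overTST replicate 3 (−0.13, adjusted p = 0.0633). SLC43A1 lost its call there without any of shTST replicates 1 to 3 or overTST replicates 2 to 4 (0.0517 to 0.109), and with no filter (−0.10, 0.236).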

How the data were processed

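The authors deposited, for each of the 12 libraries, read counts for every Ensembl gene as whole numbers without normalization, beside the exon coordinates, strand and exonic length. Per the labels the reads were trimmed with Trimmomatic 0.36, aligned with STAR 2.5.2b to GRCh38 and counted with featureCounts of Subread 1.5.2 (submitters' processing notes). The use of strand, the handling of multimapping reads and the annotation release are not given in the sources used here.

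The labels gave the groups and the replicate numbers. Genes were matched by symbol through the name table. CPM were computed on library sizes scaled by TMM over all 12 libraries. Comparisons with WT used a fit of the 8 libraries concerned, and shTST against overTST as a contrast in a model of all 12, after edgeR's filterByExpr at its defaults. The test was edgeR's quasi-likelihood test with Benjamini-Hochberg adjustment over all genes tested, at a threshold of 0.05. Standard errors are the log2 fold change over the square root of F, and intervals are 95% intervals. The pseudocount of the deviations from WT was 0.5. The tools were edgeR 4.0.16, DESeq2 1.42.0 and limma 3.58.1 under R 4.3.3, and SciPy 1.17.1 and matplotlib 3.10.9 under Python 3.11.15. The procedure was tested on simulated counts.

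No pair of libraries of a group agreed within sampling noise (chi-square per gene 3.58 to 35.3 over 18 pairs), so all were kept. The chi-square per gene was 5.87 to 35.3 in WT, 4.41 to 8.2 in shTST and 3.58 to 9.64 in overTST. Total counts of 22911380 to 45120508 set the counting error, and p-values measure the spread between these libraries. Of the 34 genes, 2 were below the filter, and every other gene had at least 58 counts in each library.

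The 34 genes and all lists were chosen with earlier results of these data known, and they give no independent support. Values per library are given for TST, ATF4, the 3 listed kinases, the 8 genes with the smallest p in each comparison with WT and the genes past the threshold in opposite directions. Of the other lists, the 2 genes with the smallest p are named in each comparison. Ranges or fold changes are given for the rest. Promoter windows come from RefSeq.

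The alternatives were RLE and upper-quartile normalization, DESeq2, limma-voom, no filter, more than 1 CPM in at least 4 libraries, another choice of libraries in the fit, the replicate number as a block, a gene length correction (a lowess trend per library, span 0.3) with and without the block, and leaving out each library in turn.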

Additional observations from a re-analysis of the deposited data

Results flagged for a closer look

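In 6 of 99 groups of 4 libraries, 1 library lay far from the other three by Dixon's test, with a gap above the 95% critical value, as a share of the whole range of the group. About 1 in 20 groups exceeds this by chance. CEBPB in shTST was highest in replicate 3 (76.4 CPM, gap 0.946 of the range), and TST in shTST was also highest in replicate 3 (36.6 CPM, 0.839). PYCR1 was lowest in replicate 1 both in WT (338.4 CPM, 0.873) and in overTST (337.5 CPM, 0.942). EIF4EBP1 in overTST was lowest in replicate 1 (132.8 CPM, 0.831), and STC2 in WT was highest in replicate 2 (80.2 CPM, 0.955).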

How the results depend on the processing

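Of the 32 genes tested, 2 were higher than WT in shTST, and this count was 4 with upper-quartile normalization, 1 with no filter, 4 with the gene length correction, 4 with the length correction and replicate block together, and 1 to 2 when each library was left out in turn. Leaving out libraries gave medians of −0.13 to −0.07 in shTST, 6 to 14 higher genes in overTST against WT and 1 to 4 higher genes in shTST against overTST (1 without shTST replicate 1). The genes lower in shTST than WT, 12 with all libraries, were then 9 to 11. Those lower in overTST than WT, 6 with all libraries, were 4 to 7. Those lower in shTST than overTST, 17 with all libraries, were 14 to 19. EIF2AK4 in overTST turned from −0.01 to 0.17 with the length correction (adjusted p = 0.00958) and with the length correction and replicate block (0.00629). With upper-quartile normalization the share of higher genes among all called rose from 41.6% to 52.7% in shTST and from 46.3% to 54.1% in overTST, and with no filter it rose from 51.2% to 58.2% between the lines. Correlations of same-numbered libraries were weak (r = −0.0804 to 0.135, against −0.195 to 0.135 in other pairs), so the numbers are not taken as pairs. Weak correlations cannot settle whether same-numbered libraries were handled together. With the replicate block, 3 genes were higher and 12 lower in shTST, 11 and 8 in overTST, and 4 and 18 between the lines. Of all genes tested, 1247 were higher and 1733 lower in shTST with the block, against 975 and 1371 without it. In overTST these were 2408 and 2758, against 2265 and 2628. The calls gained with the block were PPP1R15B in shTST (adjusted p = 0.0342), ATF4 (0.0358), JDP2 (0.0341), PHGDH (0.0187) and ALDH18A1 (0.0377) in overTST, and DDIT4 (0.0249) and EIF2AK4 (0.0489) between the lines. The causes were not tested. The depth limits statements on CHAC1 and FGF21, which had at most 5 counts in a library.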
